A study of Mus musculus with 48 samples.

Results

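Tyr and a, 2 genes of coat colour, were far more abundant in brains with a deletion on chromosome 7 than in wild-type brains. None of 8 chosen chromosomal neighbours passed the test for a difference in any tissue, with Nox4 tested in striatum alone. Only 0.13% of all tested genes passed in cortex, 0.128% in striatum and 0.138% in cerebellum, so a count of 0 equals that background. The 10 genes described here are Tyr with Nox4, Ctsc, Rab38 and Folh1 on chromosome 7, and a, the agouti gene, with Raly, Eif2s2, Ahcy and Itch on chromosome 2. Tyr and a were chosen because they were higher in deletion libraries of this series, and the neighbours because of where they lie. Each of the 10 symbols matched 1 Ensembl identifier, of 47069 genes in the count table. The deletion against wild-type values of Tyr and a are therefore a description with no test, while those of the neighbours are given with the test.

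The deletion mice lacked a stretch of chromosome 7, band 7qF3, that corresponds to human 16p11.2, and were set against wild-type mice. All animals were on a mixed C57BL/6N:129Sv background. RNA was sequenced from cortex, striatum and cerebellum of 8 deletion and 8 wild-type animals, 4 males and 4 females of each genotype, which gave 6 groups of 8 libraries. The labels' age field holds a date that divides the animals as sex does, so that sex and date cannot be told apart. How the deletion allele was made, whether 1 or both copies were lost, which other sequences it carries, and which alleles of Tyr and a the animals had are not given in the labels.

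Tyr encodes tyrosinase, which catalyses the slowest step of melanin synthesis and is normally made by melanocytes and the pigment epithelium of the eye. The agouti gene encodes a secreted protein that blocks the melanocortin receptor Mc1r on melanocytes and turns pigment synthesis in hair follicles towards yellow. Its relative Agrp acts on the brain's melanocortin receptors Mc3r and Mc4r. The neighbours have other roles. Rab38 is a small GTPase of melanosome formation, Nox4 an NADPH oxidase, Ctsc the lysosomal protease cathepsin C and Folh1 the peptidase glutamate carboxypeptidase II. Raly is an RNA-binding protein of ribonucleoprotein particles, Eif2s2 a subunit of translation initiation factor eIF2, Ahcy the enzyme that breaks down S-adenosylhomocysteine and Itch a ubiquitin ligase.

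Tyr (ENSMUSG00000004651) lies on the minus strand at chr7:87424771-87493512 in GRCm38, and a (ENSMUSG00000027596) on the plus strand at chr2:154791402-155051012. The interval treated as deleted, from Slx1b to Mylpf, spans chr7:126689468-127214298 and holds 55 annotated genes. It begins 39.2 Mb beyond Tyr and lies on another chromosome than a. Nox4 ends 26.1 kb before Tyr, and Folh1 ends 649 kb before it. Ctsc begins 785 kb and Rab38 937 kb after Tyr. Within the long annotated span of a lie all of Eif2s2, on the opposite strand, and most of Raly, on the same strand. Of the 1169 exon bases of a, 147 (12.6%) are also exon bases of Raly, so reads may have been shared between them. Ahcy begins 8.30 kb and Itch 82.5 kb after the end of a.

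The windows around the RefSeq start sites of Tyr and a, 250 bases before and 50 after (GRCm38.p6), are shown because both genes were higher in deletion libraries while their neighbours were not called. In the Tyr window, chr7:87493463-87493762 on the minus strand, capitals mark the letters CATGTG, the core of the M-box bound by MITF-family factors in pigment gene promoters. The a window is chr2:155013320-155013619 on the plus strand.
Tyr: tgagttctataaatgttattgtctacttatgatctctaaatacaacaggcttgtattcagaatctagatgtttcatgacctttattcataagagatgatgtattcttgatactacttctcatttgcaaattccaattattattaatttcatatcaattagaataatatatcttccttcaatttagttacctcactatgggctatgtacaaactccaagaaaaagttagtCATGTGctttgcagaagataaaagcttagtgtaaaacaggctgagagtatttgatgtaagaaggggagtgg
a: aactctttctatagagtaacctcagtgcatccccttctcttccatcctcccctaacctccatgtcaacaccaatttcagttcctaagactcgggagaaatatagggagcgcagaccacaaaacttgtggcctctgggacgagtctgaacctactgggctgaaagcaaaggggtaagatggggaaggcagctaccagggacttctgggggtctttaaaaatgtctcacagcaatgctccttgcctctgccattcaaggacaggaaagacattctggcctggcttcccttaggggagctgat
RefSeq promoter windows were at hand for 8 of the 10 genes, all but Rab38 and Itch. CATGTG was searched on both strands, the other strand reading CACATG. Of the 8 windows only that of Tyr held it, with 1 match that begins 21 bases before the start site. Of 32851 mouse windows of the same length, 14.2% held the motif, so a match is common. The windows of Tyr and a thus shared no match to these letters.

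The libraries held between 29244745 and 60751792 counts on genes (median 32232112). The deleted interval was lower in every deletion library than in every wild-type library of its tissue, with 20 of 30 tested genes called lower by edgeR in cortex, 20 of 33 in striatum and 21 of 32 in cerebellum. The median log2 fold change of its tested genes was -1.08 in cortex, -1.05 in striatum and -1.04 in cerebellum. Tissue labels were set against summed marker levels. Cerebellar markers reached 831 to 4234 CPM in deletion and 2191 to 4955 CPM in wild-type cerebella, against at most 253 CPM in any cortex or striatum library. Deletion cerebellum D809 stood apart, with the lowest cerebellar sum and 466 CPM of cortical markers, where the other cerebella had at most 147 CPM. Striatal markers ranged from 368 to 2694 CPM in deletion cortex and from 188 to 4614 CPM in deletion striatum. In wild type the ranges were 177 to 1441 CPM and 162 to 2694 CPM, so this list did not separate cortex from striatum. Cortical markers ran from 219 to 555 CPM in deletion cortex and from 86.2 to 169 CPM in deletion striatum. In wild type they ran from 327 to 733 CPM and from 71.2 to 329 CPM. Thalamic markers ran from 64.1 to 205 CPM in deletion cortex and from 175 to 708 CPM in deletion striatum. Their wild-type ranges were 68.2 to 241 CPM and 162 to 705 CPM. In such bulk tissue, fewer cells of a type and less RNA per cell cannot be told apart.

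Tyr was expressed in every deletion library and close to absent in wild type. Levels are given as CPM, the counts scaled to library size after TMM normalisation. In cortex the deletion libraries held 10.8 (lowest), 11.6 (median) and 13.3 CPM (highest), against 0, 0.0446 and 0.445 CPM in wild type. In striatum they held 8.50, 11.6 and 15.6 CPM, against 0, 0.0862 and 0.208 CPM in wild type. In cerebellum they held 7.76, 15.0 and 18.2 CPM, against 0, 0 and 0.0334 CPM in wild type. All 24 deletion libraries lay above all 24 wild-type libraries, with a wide gap between the groups in each tissue.

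Tyr averaged 11.8 ± 0.849 CPM in deletion and 0.0864 ± 0.147 CPM in wild-type cortex (SD, n = 8 each). In striatum the means were 11.96 ± 2.10 CPM in deletion and 0.0861 ± 0.0625 CPM in wild type, and in cerebellum 14.6 ± 3.49 CPM in deletion and 0.00769 ± 0.0143 CPM in wild type. The fitted log2 fold changes were 7.02 ± 0.51 in cortex, 7.05 ± 0.34 in striatum and 10.28 ± 0.40 in cerebellum (SE). Summed over libraries, Tyr had 2993 counts in deletion and 23 in wild-type cortex, a ratio at equal library size of 132 (95% exact interval 87.8 to 208). In striatum it had 3426 counts in deletion and 23 in wild-type libraries, a ratio of 135 (90.1 to 214). In cerebellum 3746 counts in deletion libraries stood against 2 in wild type, a ratio of 1883 (521 to 15550). The higher cerebellar ratio came with the lower wild-type count, whereas the deletion levels differed far less between tissues. The exact intervals of the ratios cover counting error only. In cerebellum the interval of the fitted value, 691 to 2226-fold, was nevertheless narrower than the exact one. With 2 wild-type counts, the SE of 0.40 there is thus too small to be read as the full error.

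Wild-type reads of Tyr were few but not spread evenly. Of the 23 counts in wild-type cortex, 15 came from the female W816, and the other 7 libraries held 0 to 2 each. Without W816 the cortex ratio was 330 (167 to 765) and the fitted fold change 8.25. In wild-type striatum the 23 counts came from 7 of 8 libraries, with at most 7 in 1 library. In wild-type cerebellum 6 of 8 libraries had none.

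The agouti gene showed the same direction at a lower and more variable level. In cortex the deletion libraries held 0.455 (lowest), 1.46 (median) and 2.48 CPM (highest), against 0, 0.0148 and 0.0336 CPM in wild type. In striatum they held 0.414, 0.927 and 1.82 CPM, against 0, 0.0303 and 0.511 CPM in wild type. In cerebellum they held 0.576, 0.850 and 1.68 CPM, against 0, 0.0320 and 0.334 CPM in wild type. The groups did not overlap in cortex and cerebellum, and in striatum 7 of 8 deletion libraries exceeded the highest wild-type library, W807.

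Means of a were 1.35 ± 0.640 CPM in deletion and 0.0158 ± 0.0169 CPM in wild-type cortex (SD, n = 8 each). They were 1.09 ± 0.549 CPM in deletion and 0.128 ± 0.203 CPM in wild-type striatum, and 0.973 ± 0.425 CPM in deletion and 0.110 ± 0.137 CPM in wild-type cerebellum. The fitted log2 fold changes were 6.10 ± 0.52, 3.06 ± 0.72 and 3.12 ± 0.64 in cortex, striatum and cerebellum (SE). Summed counts were 342 in deletion and 4 in wild-type cortex, a ratio of 86.7 (33.6 to 320). They were 292 in deletion and 33 in wild-type striatum, a ratio of 8.04 (5.599 to 11.9). They were 246 in deletion and 28 in wild-type cerebellum, a ratio of 8.83 (5.96 to 13.6). In cortex, with 4 wild-type counts, the fitted interval of 31.9 to 148-fold was narrower than the exact one. The lower ratios outside cortex came with higher wild-type counts, and the deletion means of the 3 tissues lay within 1 SD of one another. Of all tested genes, edgeR called 2 higher in each tissue, 0.0119% in cortex, 0.0116% in striatum and 0.012% in cerebellum. Tyr was 1 of them in each tissue and a in cortex alone, while DESeq2 called a in all 3. Both genes were chosen on this contrast, so these calls are no test of them.

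**Figure D1:**
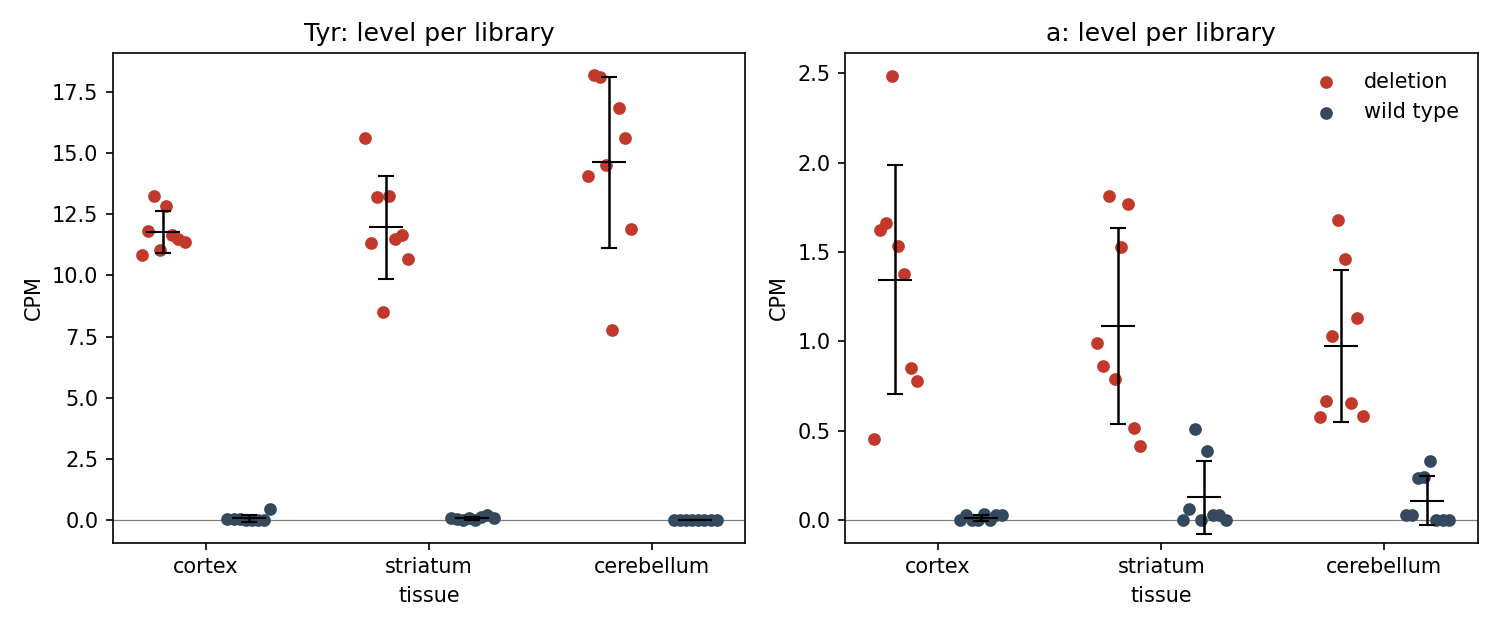
Levels of Tyr (left) and a (right) in CPM by tissue, with deletion libraries left of wild-type libraries; each point is 1 library and bars give the mean and SD of 8. Every deletion library of Tyr lies at 7.76 CPM or above while no wild-type library exceeds 0.445 CPM, and for a the groups overlap in striatum alone.

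Wild-type counts of a came mainly from a few animals. In striatum W807 had 17 counts and W813 had 12, and the other 6 libraries had 0 to 2. In cerebellum W813 had 10, W807 and W808 had 8 each, and the others had 0 or 1. Summed over tissues, W807 had 25 and W813 had 23 counts, while the deletion animals had 65 to 160. Without W807 the striatal ratio was 14.5 (8.78 to 25.7), and without W813 the cerebellar ratio was 12.1 (7.52 to 20.8). W807, W808 and W813 were also the wild-type cerebella with the highest choroid plexus marker sums, at 3962, 4070 and 13784 CPM, against at most 1341 CPM in the other 5. Among wild-type striata, W816 had the highest choroid plexus sum, 4867 CPM, and no count of a, and W813 the next, 1802 CPM, with 12 counts. W807, with the most counts of a there, had a choroid plexus sum of 45.6 CPM. The part of these markers in the wild-type counts of a was not tested.

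Compared per length, the 2 genes were closer. Per kilobase of annotated exons, Tyr stood at 1.66 ± 0.119 and a at 1.15 ± 0.548 RPKM in deletion cortex (SD, n = 8). In the same libraries Ctsc stood at 1.44 ± 0.345 and Folh1 at 2.70 ± 1.63 RPKM, and Raly at 31.7 ± 9.63 RPKM. Tyr thus lay between Ctsc and Folh1 in level per length, and a lay below Raly, Eif2s2, Ahcy and Itch, which had mean levels of 5.05 RPKM or more there.

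No tested gene but Tyr was higher in every deletion than in every wild-type library in all 3 tissues. Every deletion library exceeded every wild-type library for 2 of 16877 genes in cortex (0.0119%), for 2 of 17198 in striatum (0.0116%) and for 4 of 16672 in cerebellum (0.024%). In cortex these were Tyr and a, and in striatum Tyr and Hibadh, an enzyme of valine breakdown. In cerebellum they were Tyr, a, Apold1, an endothelial early-response gene, and Kctd21, a cullin-3 adaptor encoded on chromosome 7. Hibadh and Kctd21 separated by small steps, with log2 fold changes of 0.20 ± 0.06 and 0.37 ± 0.08 (SE). The names outside the 10 genes were read off after their values were seen.

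The neighbours of both genes overlapped between deletion and wild-type libraries in each tissue. A gene was called at an edgeR adjusted p under 0.05, which in these comparisons 0.13% of genes reached in cortex, 0.128% in striatum and 0.138% in cerebellum. Of the 8 neighbours, 7 passed the low-count filter in cortex, 8 in striatum and 7 in cerebellum, with Nox4 passing in striatum alone. None was called, and none had an unadjusted p under 0.05, by edgeR or by DESeq2. With so few genes called in all, a count of 0 among 7 or 8 genes equals the background, and the intervals say more. Their median log2 fold change was -0.08 in cortex, 0.03 in striatum and -0.01 in cerebellum, against 0.00, -0.01 and -0.00 over all tested genes. The values ranged from -0.18 to 0.27, from -0.21 to 0.42 and from -0.07 to 0.26.

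On chromosome 7, Nox4 is the gene nearest to Tyr in the set and was rare outside striatum. In deletion cortex and cerebellum it had 43 and 41 counts over 8 libraries, against 31 and 23 in wild type. In striatum it held 0.395 (lowest), 0.875 (median) and 1.67 CPM (highest) in deletion libraries, against 0.271, 0.619 and 1.43 CPM in wild type. Its log2 fold change there was 0.42 with a 95% interval of -0.39 to 1.22 (edgeR adjusted p = 1.0). The groups overlapped, and 2 of 8 deletion libraries exceeded the highest wild-type library.

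Ctsc held 6.25, 7.95 and 12.1 CPM in deletion cortex, against 5.58, 8.35 and 12.6 CPM in wild type (lowest, median and highest). Its log2 fold changes were 0.00 (-0.36 to 0.37) in cortex, -0.20 (-0.64 to 0.25) in striatum and 0.04 (-0.53 to 0.60) in cerebellum. The 2 genotypes covered nearly the same range in cortex. Rab38, the neighbour with a role in pigment cells, held 0.0906, 0.521 and 1.25 CPM in deletion cortex, against 0.178, 0.436 and 1.78 CPM in wild type. The log2 fold changes of Rab38 were -0.18 (-1.38 to 1.02), -0.21 (-0.90 to 0.47) and 0.26 (-1.57 to 2.09) in cortex, striatum and cerebellum. The cerebellar interval of Rab38 was the widest of the tested neighbours and reached 4.27-fold at its upper end. Its coefficient of variation there was 94.4% in deletion and 154% in wild-type libraries. Counting alone would give about 22.5% and 25.1%, so Rab38 varied between animals well beyond counting error. The highest wild-type values in cortex and cerebellum, 1.78 and 2.30 CPM, were both from animal W813, whose libraries also had the highest melanocyte, meningeal and choroid plexus marker sums of those 2 wild-type groups. The sums were 6.29, 325 and 6486 CPM in its cortex and 12.8, 463 and 13784 CPM in its cerebellum. Their part in the levels of Rab38 was not tested. Without W813 the log2 fold change of Rab38 was 0.30 in cortex and 1.48 in cerebellum, and neither was called.

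Folh1 varied widely between animals of both genotypes. In cortex it held 2.68, 8.23 and 15.4 CPM in deletion libraries, against 3.33, 6.71 and 13.4 CPM in wild type. Its log2 fold changes were 0.21 (-0.62 to 1.04), 0.04 (-0.45 to 0.53) and -0.01 (-0.69 to 0.67) in cortex, striatum and cerebellum. Groups overlapped in each tissue.

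On chromosome 2, Eif2s2 lies within the span of a and had the narrowest interval of the tested neighbours in each tissue. Eif2s2 held 54.8, 61.5 and 66.0 CPM in deletion cortex, against 58.1, 66.9 and 71.4 CPM in wild type. For Eif2s2 the fit gave log2 fold changes of -0.10 (-0.24 to 0.05), 0.08 (-0.10 to 0.27) and 0.01 (-0.14 to 0.16) in cortex, striatum and cerebellum. A change of Eif2s2 beyond 1.21-fold upwards lies outside the interval in each tissue.

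Raly, which shares exon bases with a, held 48.01, 105 and 149 CPM in deletion cortex, against 74.2, 119 and 164 CPM in wild type. The log2 fold changes of Raly were -0.16 (-0.58 to 0.26), 0.03 (-0.29 to 0.35) and -0.07 (-0.42 to 0.28) in cortex, striatum and cerebellum. Raly had 26372 counts in deletion cortex and a had 342. The counts of a are thus few beside the spread of Raly between libraries.

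Ahcy, which begins 8.30 kb after a, held 6.92, 15.6 and 22.8 CPM in deletion cortex, against 7.59, 15.2 and 20.6 CPM in wild type. Its log2 fold changes were -0.08 (-0.61 to 0.45), -0.11 (-0.54 to 0.31) and -0.06 (-0.45 to 0.33). Itch held 27.4, 47.0 and 71.5 CPM in deletion cortex, against 25.4, 39.3 and 62.5 CPM in wild type. For Itch the fit gave log2 fold changes of 0.27 (-0.25 to 0.78), 0.02 (-0.39 to 0.44) and -0.01 (-0.52 to 0.51). Both genes overlapped between genotypes in each tissue.

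**Figure D2:**
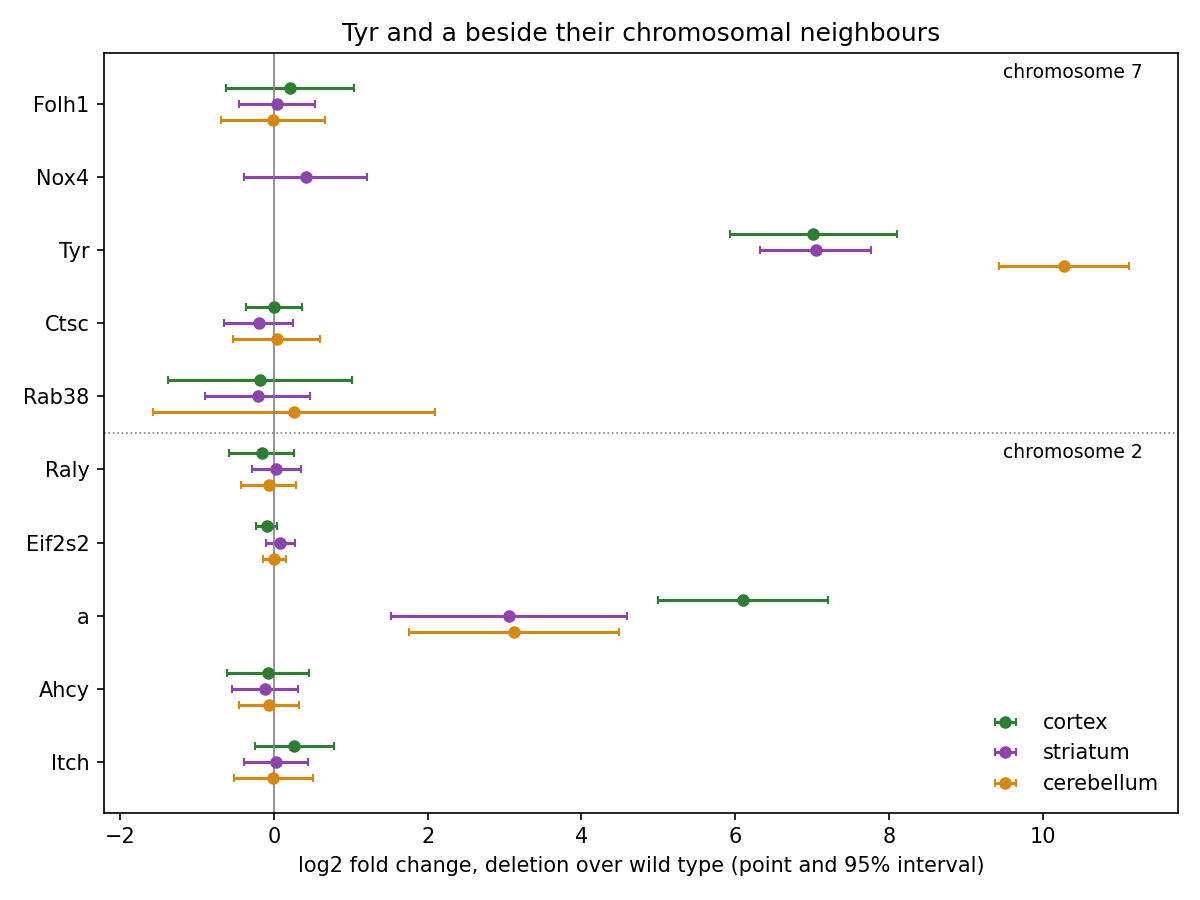
Fitted log2 fold change, deletion over wild type, of the 10 genes in chromosomal order, with points for the estimate and bars for the 95% interval in cortex, striatum and cerebellum. The intervals of the neighbours all include 0, with estimates from -0.21 to 0.42, while Tyr lies at 7.02 to 10.28 and a at 3.06 to 6.10; Nox4 was tested in striatum alone.

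No other tested gene up to 5 Mb away was called, where 0.13%, 0.128% and 0.138% of all tested genes were called by edgeR. A count of 0 in windows of this size equals that background, and genes below the filter were not tested. Of 143 genes in the table within 5 Mb of Tyr, 39 were tested in cortex and 40 in striatum and in cerebellum. None was called and none had an unadjusted p under 0.05 by edgeR, against 2.03%, 3.32% and 2.08% of all tested genes. Of 338 genes within 5 Mb of a, 150, 156 and 151 were tested in cortex, striatum and cerebellum, and none was called. At an unadjusted p under 0.05 there were 3, 3 and 6 of them (2.0%, 1.92% and 3.97%), against 2.03%, 3.32% and 2.08% of all tested genes. DESeq2 called none either, with 3, 8 and 7 genes of both windows at an unadjusted p under 0.05.

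Grm5, a metabotropic glutamate receptor and the nearest gene after Tyr that was tested in all tissues, lies 90.7 kb away. It averaged 125 ± 66.4 CPM in deletion and 93.0 ± 38.0 CPM in wild-type cortex (SD, n = 8 each). The log2 fold changes of Grm5 were 0.40 (-0.26 to 1.06), -0.01 (-0.78 to 0.76) and 0.63 (-0.36 to 1.62) in cortex, striatum and cerebellum, and none was called. The next such genes before Folh1, Zfand6 and Fah, lie as far as 2735 and 2818 kb from Tyr and had values between -0.20 and 0.13. Before a, the nearest such genes were Chmp4b, 96.6 kb away, Zfp341 and Pxmp4, with values between -0.21 and 0.09. After Itch came Dynlrb1, with values between -0.12 and 0.08.

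A pair of genes farther from a had an edgeR unadjusted p under 0.05 in at least 2 tissues without being called. Dusp15, a dual-specificity phosphatase gene 1840 kb before a, did so in all 3 tissues. Its log2 fold changes were 0.16 ± 0.06, 0.25 ± 0.11 and 0.33 ± 0.10 (SE) in cortex, striatum and cerebellum. The RIKEN gene 5430405H02Rik, 1793 kb after a, did so in cortex and cerebellum, with values of -0.40 ± 0.16, -0.25 ± 0.12 and -0.30 ± 0.14. Both were picked out after their values were seen, and the lowest of their edgeR adjusted p-values was 0.965.

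**Figure D3:**
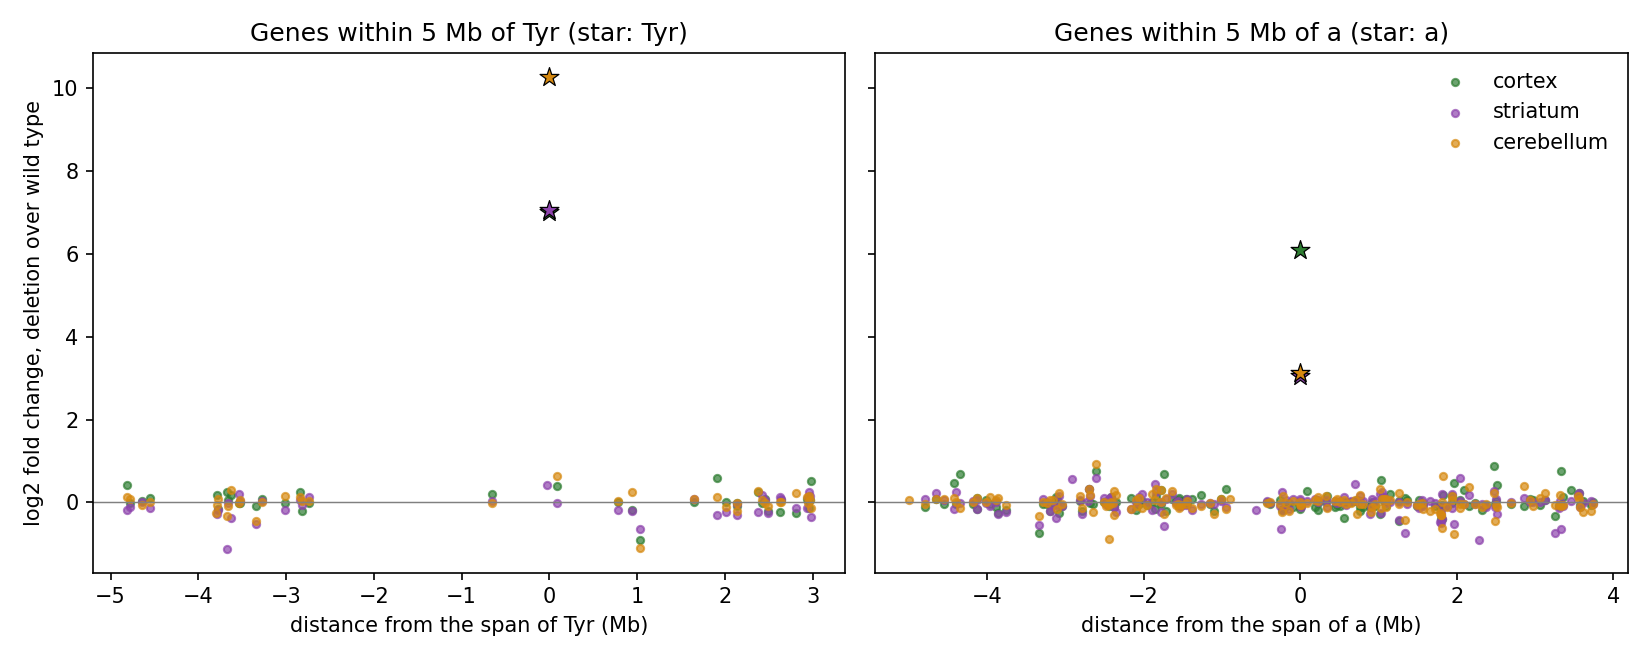
Fitted log2 fold change, deletion over wild type, of every tested gene within 5 Mb of Tyr (left) and of a (right) against its distance, with negative distances before the gene and stars for Tyr and a. The genes around both lie between -1.12 and 0.92, well below the stars.

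None of the other tested genes of pigmentation and of the melanocortin pathway was called. Of a list of 40, 29 were tested in cortex, 29 in striatum and 32 in cerebellum, and none was called in any tissue by edgeR or DESeq2, where 0.13%, 0.128% and 0.138% of all tested genes were called by edgeR. A count of 0 in a list of this size equals that background, and the listed genes below the filter were not tested. At an unadjusted p under 0.05 there was 1 by either tool, by edgeR Mlph in striatum, the melanophilin gene, at -0.43 (-0.84 to -0.02). The medians were 0.08, 0.01 and 0.01 on the log2 scale, against 0.00, -0.01 and -0.00 over all tested genes.

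Among genes of melanin synthesis and the melanosome, 3 of 8 were tested in cortex, 3 in striatum and 6 in cerebellum. Dct, the dopachrome tautomerase that acts after tyrosinase, had 0.07 (-0.75 to 0.88), 0.40 (-0.46 to 1.25) and 0.15 (-0.56 to 0.86) in cortex, striatum and cerebellum. Pmel, which builds the fibrils of the melanosome, had -0.25, 0.18 and -0.28. Slc24a5, an ion exchanger of pigment organelles, passed the filter in cerebellum alone, at -0.27 (-2.14 to 1.60). Tyrp1, the closest relative of tyrosinase in melanin synthesis, had 59 counts in deletion and 39 in wild-type cortex. It had 202 counts in deletion and 100 in wild-type striatum, with means of 0.769 ± 1.02 and 0.377 ± 0.508 CPM (SD, n = 8 each). In cerebellum, where alone it passed the filter, it had 85 counts in deletion and 87 in wild type. Its log2 fold change there was -0.04 (-0.72 to 0.64).

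Regulators of the pigment lineage were expressed without a difference past the test. Mitf, the transcription factor that activates Tyr in melanocytes, averaged 8.10 ± 1.14 CPM in deletion and 7.36 ± 1.89 CPM in wild-type cortex, and its log2 fold changes were 0.14, -0.06 and 0.10. Sox10, which also marks oligodendrocytes, had 0.03, 0.01 and 0.13. Kit, its ligand Kitl, the endothelin receptor Ednrb, its ligand Edn3, Pax3 and Tfap2a made up the rest of this group, with values between -0.19 and 0.24. Pax3 and Tfap2a were tested in cerebellum alone.

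Among melanocortin genes, the brain receptor Mc4r averaged 2.82 ± 0.799 CPM in deletion and 2.37 ± 1.08 CPM in wild-type cortex, and 4.72 ± 1.40 CPM in deletion and 4.79 ± 1.503 CPM in wild-type striatum. Mc3r had log2 fold changes of -0.28 in cortex and -0.10 in striatum. Mc1r, the receptor that agouti blocks in skin, had 21 counts over the 8 deletion and 12 over the 8 wild-type cortex libraries and did not pass the filter. Pomc, the precursor of the melanocortin peptides, had the lowest value of the list, -2.31 (-4.97 to 0.35) in striatum. Its level there was 9.345 ± 12.2 CPM in deletion and 46.2 ± 82.4 CPM in wild type. Agrp did not pass the filter in any tissue. Atrn and Mgrn1, known from mouse coat colour mutants to act with agouti, had values between -0.10 and 0.17 and between -0.04 and 0.00. Mrap2, an accessory protein of these receptors, had 0.38, 0.21 and 0.32.

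All 14 listed genes of organelle transport were tested in each tissue. They comprised Rab27a, Mlph and Myo5a, which carry melanosomes to the cell edge, with Rab32, Slc7a11, Ostm1, Hps1, Hps4, Ap3b1, Ap3d1, Bloc1s5, Dtnbp1, Bloc1s6 and Lyst. Their values ranged from -0.39 to 0.48 in cortex, from -0.43 to 0.20 in striatum and from -0.14 to 0.27 in cerebellum, with none called.

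Markers of melanocytes were low in both genotypes. The summed level of 10 such markers, Tyr left out, was 2.26 to 5.65 CPM in deletion and 1.71 to 6.29 CPM in wild-type cortex. It was 2.07 to 9.20 CPM in deletion and 1.07 to 11.6 CPM in wild-type striatum, and 2.55 to 7.05 CPM in deletion and 2.53 to 12.8 CPM in wild-type cerebellum. The medians were 3.15 CPM in deletion and 2.50 CPM in wild-type cortex, 2.91 and 2.90 CPM in deletion and wild-type striatum, and 4.504 and 4.16 CPM in deletion and wild-type cerebellum. The ranges overlapped in each tissue, with the median slightly higher in deletion and the highest single library in wild type. Trpm1 had no count in any deletion cerebellum, and the other 9 markers had counts in each group. The part of these markers in the level of Tyr was not tested.

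Within the deletion animals, which the choice of the genes did not compare, Tyr had smaller coefficients of variation than a. Its coefficient of variation was 7.20% in cortex, 17.5% in striatum and 23.9% in cerebellum, where counting alone would give about 5.17%, 4.83% and 4.62%. For Eif2s2, a gene of housekeeping function, the values were 7.20%, 10.1% and 7.88%, where counting alone would give about 2.27%, 2.06% and 1.97%. The agouti gene varied more, by 47.6%, 50.6% and 43.7%, where counting alone would give about 15.3%, 16.6% and 18.0%. Neighbours of low level varied by 72.7%, 63.0% and 94.4% (Rab38) and by 78.8%, 51.0% and 68.9% (Nox4) in deletion libraries. These values were above those of a, though Nox4 in striatum was close to it. Counting alone would give about 23.2%, 19.5% and 22.5% for Rab38 and 43.1%, 16.8% and 44.2% for Nox4.

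Tyr tended to be highest in cerebellum. It was highest there in 6 of the 8 deletion animals and in striatum in the other 2, D801 and D809. Among deletion libraries, edgeR gave a log2 difference of 0.31 (0.02 to 0.60) for cerebellum minus cortex (adjusted p = 0.0695) and of -0.30 (-0.59 to -0.01) for striatum minus cerebellum (adjusted p = 0.0812). Striatum and cortex differed by 0.01 (-0.28 to 0.30). In these 3 contrasts 48.4%, 45.0% and 18.6% of all genes were called, so tissue differences were common. Without animal D809, whose cerebellum library stood apart by its markers and had the lowest cerebellar Tyr level, 7.76 CPM, the differences were 0.42 (adjusted p = 0.00653) and -0.41 (adjusted p = 0.00807). Without D801 the second was -0.37 (adjusted p = 0.0494). The call of a tissue difference in Tyr therefore depended on which animals were kept.

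The agouti gene did not differ between tissues past the threshold. Its differences were -0.32 (-1.04 to 0.40) for striatum minus cortex, -0.45 (-1.18 to 0.27) for cerebellum minus cortex and 0.13 (-0.59 to 0.86) for striatum minus cerebellum. It was highest in cortex in 4 animals, in striatum in 3 and in cerebellum in 1. These intervals allow differences of more than 1 log2 unit, so a like level in all tissues was not shown.

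Some neighbours differed between tissues in the same libraries. Striatal markers overlapped between these cortex and striatum libraries, and the part of dissection in the differences was not tested. Nox4 was higher in striatum, by 2.44 (1.48 to 3.41) over cortex (edgeR adjusted p = 5.94e-04) and by 2.44 (1.46 to 3.41) over cerebellum (adjusted p = 1.72e-04). Raly was higher in cerebellum than in cortex by 0.65 (adjusted p = 0.00408), and Eif2s2 by 0.41 (adjusted p = 4.30e-05). Both were also lower in striatum than in cerebellum, by values of -0.73 (adjusted p = 0.00168) and -0.34 (adjusted p = 3.49e-04). With the animal as a block, Ahcy and Folh1 were called too. Ahcy was then higher in striatum, by 0.44 over cortex (adjusted p = 0.00187) and 0.29 over cerebellum (adjusted p = 0.0124). Folh1 was higher by 0.69 in striatum (adjusted p = 0.0151) and by 0.75 in cerebellum (adjusted p = 0.00340), each over cortex. Tyr and a kept their side of the threshold under the block.

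**Figure D4:**
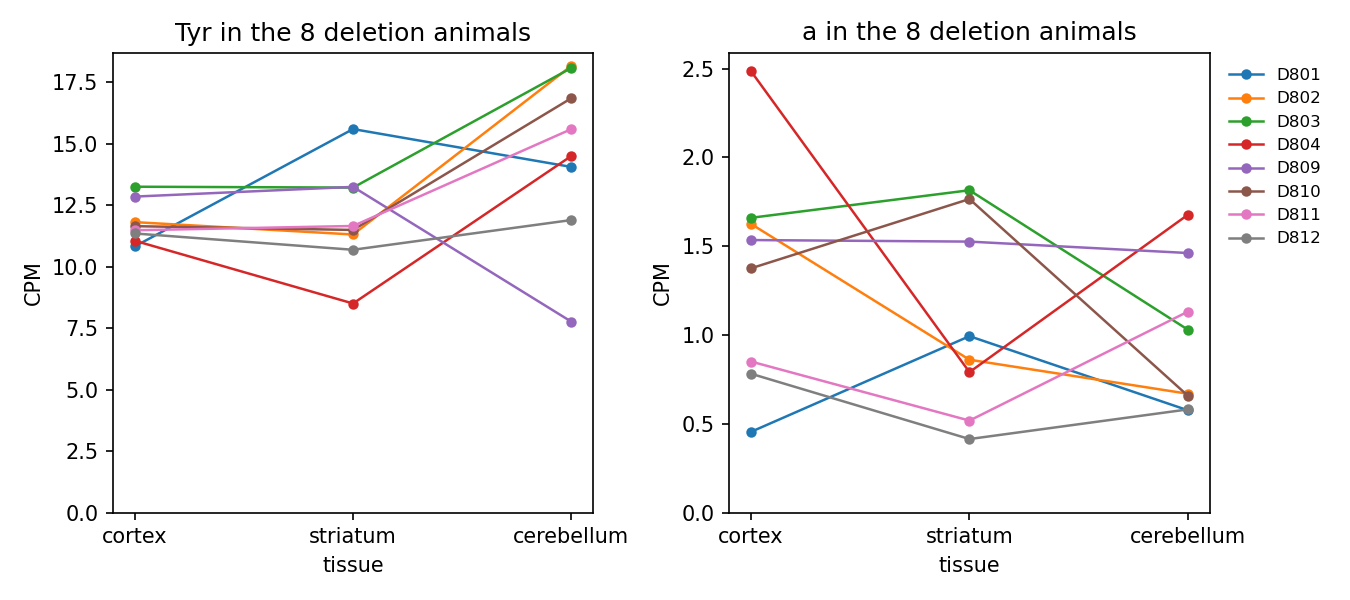
Levels of Tyr (left) and a (right) in CPM in cortex, striatum and cerebellum of the 8 deletion animals, with 1 line per animal. Tyr was highest in cerebellum in 6 animals, D809 was lowest there at 7.76 CPM, and lines of a cross without a shared order.

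For no neighbour did the genotype effect differ between tissues past the threshold. In a fit of all 48 libraries, 0 of 18531 genes were called by edgeR in any of the 3 interaction contrasts (0.0%). At an unadjusted p under 0.05 there were 343 genes (1.85%) for striatum minus cortex, 234 (1.26%) for cerebellum minus cortex and 313 (1.69%) for striatum minus cerebellum. None of the 8 neighbours was among them, a count that equals this background. The neighbours' interaction values ran from -0.47 to 0.37 on the log2 scale. With the animal as a block, again none was called and the values ran from -1.01 to 0.73. Under that block 1 neighbour had an unadjusted p under 0.05, for striatum minus cortex, where 3.25% of all genes did. It was Eif2s2 at 0.19 (0.03 to 0.35), with an edgeR adjusted p of 0.939.

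No difference between males and females with the deletion passed the test for either gene. Tyr averaged 11.7 ± 1.10 CPM in males and 11.8 ± 0.689 CPM in females in cortex, 12.2 ± 3.001 and 11.8 ± 1.07 CPM in striatum, and 16.2 ± 2.23 and 13.0 ± 4.09 CPM in cerebellum (SD, n = 4 each). For a the means were 1.56 ± 0.835 and 1.14 ± 0.376 CPM in cortex, 1.12 ± 0.474 and 1.06 ± 0.690 CPM in striatum, and 0.988 ± 0.499 and 0.958 ± 0.415 CPM in cerebellum. Over these 6 comparisons the lowest p of a 2-sided exact permutation test was 0.257, and every adjusted p was 1.0, where the smallest p this design allows is 0.0286.

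No relation between the levels of Tyr and a across deletion animals passed the test. Over the 8 animals the mean log2 levels of the 3 tissues gave Pearson's r = -0.05 (exact permutation p = 0.921) and Spearman's rho = -0.29 (exact permutation p = 0.501). Within tissues r was 0.44 in cortex, 0.40 in striatum and -0.33 in cerebellum (exact permutation p = 0.275, 0.331 and 0.480). Over these 4 correlations the adjusted p-values were 0.641 to 0.921 for r and 0.486 to 0.977 for rho. Without D804 and D809, the animals farthest from the median of Tyr, r over the mean of tissues was 0.79. With the 2 farthest animals of each tissue left out instead, r was 0.38 in cortex, 0.72 in striatum and -0.21 in cerebellum. The pooled value thus depended on which animals were kept. These values, with animals left out by their level of Tyr, were not tested.

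Across the 48 libraries, each centred on its tissue's mean, the gene most like Tyr of 15893 compared was a, with Pearson's r of 0.86. After it came Kctd21 (0.79), which like Tyr lies on chromosome 7, and Apold1 (0.73). Next were Inpp5f (0.63), a phosphoinositide phosphatase gene also on chromosome 7, and Ttpa (0.61), the tocopherol transfer protein gene. The genes most unlike Tyr were all of the deleted interval, Cd2bp2 (-0.97), Tbc1d10b (-0.97), Taok2 (-0.97), Sez6l2 (-0.95) and Fam57b (-0.93). For a the most like genes were Tyr, Tax1bp3 (0.60), Kctd21 (0.60), Depp1 (0.59) and Maff (0.58), and the least like were Taok2 (-0.90), Cd2bp2 (-0.83), Tbc1d10b (-0.80), Hirip3 (-0.79) and Sez6l2 (-0.78). These values follow genotype, since Tyr and a were chosen for it, and no chosen neighbour of either gene was among them.

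Within the 24 deletion libraries the order was another. There Entr1 (0.91), Zcchc8 (0.90) and Ncoa5 (0.90) were most like Tyr, and Phkg1, Idh2 and Rhpn1 (0.86, 0.85 and 0.84) most like a. None of the 5 most like genes of either over 48 libraries was among them. The libraries share animals, and the correlations are descriptions with no test.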

How the data were processed

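Stranded mRNA libraries of 48 samples were sequenced. The authors deposited unnormalised read counts, whole numbers for each gene, and every sample column of the table matched a label. The submitters' processing notes name FastQC 0.10.1, STAR 2.4.2a, SAMtools and Picard, and as builds GRCm38 and mm8, without roles. How reads were counted, and whether by strand, is not given in the sources used here, so counts of overlapping genes are uncertain. The 92 spike-in rows (0.0614 to 1.09% of counts) were left out. Symbols and coordinates came from a GENCODE annotation of GRCm38, which matched 46488 of 47069 identifiers.

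Genotypes were compared within each tissue with edgeR 4.0.16 in R 4.3.3 (robust quasi-likelihood test, TMM, filterByExpr, sex as a covariate), with Benjamini-Hochberg adjustment over all genes tested. SE is the absolute log2 fold change over the square root of F. Tissues were compared among the 24 deletion libraries, and genotype by tissue over all 48. Log2 CPM used a prior count of 2, and RPKM the union of annotated exons. Amplified reads carry no molecular identifiers here, and the exact intervals of the count ratios cover counting error only. Intervals of log2 values come from the edgeR fit and include the variation between libraries of a group. For Tyr in cerebellum and a in cortex, with few wild-type counts, they were narrower than the exact intervals. The test was tried on simulated data. Alternatives were size factors as in DESeq2 1.42.0, DESeq2 itself, no filter, each sex alone, another prior count, and each animal left out.

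Animals are the replicates. Tissues pair by animal number: in deletion animals, deviations of same-animal libraries correlated with a median of 0.38 (cortex and striatum), 0.50 (cortex and cerebellum) and 0.24 (striatum and cerebellum), against -0.04, -0.05 and -0.04 for other animals. Deletion and wild-type animals share no numbers.

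The 10 genes, the lists and the tests were chosen with earlier results of these data known. Named were all 10, the 3 nearest genes tested in all tissues on each side of Tyr and of a, any called gene within 5 Mb, list genes called or of at least 1 CPM, and the genes of most and least like pattern. Outside this rule, Tyrp1, Mc1r, Trpm1, Dusp15, 5430405H02Rik and Hibadh were named after their values were seen. Sequences are RefSeq's.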

Additional observations from a re-analysis of the deposited data

Results flagged for a closer look

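Tyr in wild-type cortex had 1 library far from the others. W816 held 0.445 CPM (15 counts), while the other 7 wild-type libraries held 0 to 0.0650 CPM. On the scale of log2 CPM the gap to the nearest library took 0.657 of the group's range, above Dixon's critical value for 8 samples. It was the only flag among 60 groups of 8 libraries, where chance flags about 1 in 20. In deletion cortex the lowest library held 10.8 CPM.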

How the results depend on the processing

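Few wild-type counts limit the fold changes of Tyr and a, and low counts limit Nox4. Rab38 is limited by low counts and by a spread between animals beyond counting error. Other size factors, DESeq2 and no filter on low counts moved no log2 fold change of Tyr or a by more than the spread between replicates. No listed alternative gave a call of a neighbour, of a gene within 5 Mb or of a listed pigment gene. The cause of the shifts below was not tested, other than that a single sex or a left-out animal means fewer samples.

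In males alone the log2 fold change of a in cortex was 7.09 and that of Tyr in cerebellum 12.003, and in females alone Tyr was at 9.38 there. Over all genes, the calls numbered 2 in males and 6 in females in cortex, 4 and 1 in striatum, and 1 and 1 in cerebellum. DESeq2 called 42 genes in striatum. Leaving out each animal gave 18 to 24 calls in cortex, 16 to 22 in striatum and 20 to 23 in cerebellum. It gave log2 fold changes of Tyr from 6.83 to 8.25 in cortex and from 10.12 to 10.79 in cerebellum. With the wild-type library richest in the gene left out, the ratio of Tyr in cortex was 330 and that of a in striatum 14.5.

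Among deletion libraries, leaving out each animal gave Tyr differences from -0.069 to 0.054 for striatum minus cortex, from 0.26 to 0.42 for cerebellum minus cortex and from -0.41 to -0.23 for striatum minus cerebellum. For a, striatum minus cerebellum ran from -0.093 to 0.36. With the animal as a replicate block, the Tyr differences were 0.00, 0.30 and -0.30 and those of a -0.30, -0.42 and 0.11, and neither gene crossed the threshold. With that block the interaction fit, an alternative chosen after seeing the data, called 0 genes, with 603, 486 and 387 at an unadjusted p under 0.05. Without the 2 farthest animals the correlation of Tyr and a was 0.79 over the mean of tissues. Within tissues it was 0.38 in cortex, 0.72 in striatum and -0.21 in cerebellum.

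Signs of neighbours near 0 turned in single-sex fits. In males Rab38 was at 0.46 in cortex, Folh1 at -0.13 in striatum and Ctsc at -0.11 in cerebellum. In females Rab38 was at 0.25 and Ahcy at 0.11 in striatum, and Folh1 at 0.16, Eif2s2 at -0.053 and Itch at 0.037 in cerebellum. Leaving out each animal also turned signs. The ranges in cortex were -0.19 to 0.038 for Ahcy, -0.078 to 0.10 for Ctsc and -0.41 to 0.30 for Rab38. In striatum they were -0.042 to 0.19 for Folh1, -0.053 to 0.13 for Itch, -0.46 to 0.017 for Rab38 and -0.037 to 0.12 for Raly. In cerebellum they were -0.15 to 0.038 for Ahcy, -0.062 to 0.28 for Ctsc, -0.022 to 0.036 for Eif2s2, -0.19 to 0.20 for Folh1, -0.14 to 0.13 for Itch, -0.15 to 1.48 for Rab38 and -0.15 to 0.024 for Raly.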
